A study of Ovis aries with 48 samples.

Results

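LOC114115462, LOC114111395 and LOC114111412 are 3 of the 1148 small nuclear RNA (snRNA) rows measured in sheep adipose tissue, out of 4920 rows of 4 RNA classes. They were chosen by their normalised reads in epicardial fat of prenatally testosterone-treated (prenatal T) against control sheep, as the 3 rows with the largest log2 difference, so that contrast is described here without a test, and tests are kept to the other depots, the other cohort and the depots themselves. The tests in other depots of these same sheep are not fully independent of that choice. Small RNA libraries came from 16 sheep in 2 cohorts, 48 libraries in 12 groups of 4. In the T cohort, 4 control sheep and 4 prenatal T sheep each gave subcutaneous, visceral, epicardial and perirenal fat, and the mothers of the prenatal T sheep had been injected intramuscularly with 100 mg testosterone propionate in corn oil 2 times a week from day 30 to day 90 of gestation. The labels do not say what the mothers of the T cohort controls received. In the BPA cohort, 4 control and 4 BPA sheep gave subcutaneous and visceral fat, and their mothers had daily subcutaneous injections of corn oil or of 0.5 mg per kg per day bisphenol A, a plasticiser with oestrogenic activity, over the same days. All animals shared housing conditions and a maintenance diet, and each replicate in a group is another animal.

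snRNAs are short nuclear RNAs that assemble with proteins into the spliceosome, the machine that removes introns from pre-mRNA. The major ones are encoded by many near-identical gene copies and pseudogenes spread over the genome, so reads of one RNA type can match several loci. They are abundant in every nucleated cell and are not markers of fat. The sources used here do not say how reads that match several copies were counted, so the value of a single copy is uncertain. In bulk tissue, fewer cells of a type and less RNA per cell cannot be told apart.

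Values are normalised reads, that is, reads divided by a size factor that the authors set for each RNA class within each depot. Whole reads could be recovered from them, 260804 to 1742991 per library in the 4 classes (median 713222), of which 667 to 10795 (median 1383.5) were snRNA reads. snRNAs were thus 0.0595% to 0.927% of the reads. Of the 1148 snRNA rows, 415 had a read in some library. Library numbers in the labels fall into an early set (up to 48, 24 libraries) and a later set (from 81, 24 libraries) that are spread unevenly over the groups: 7 of 8 subcutaneous and 7 of 8 perirenal libraries of the T cohort are early, against 3 of 8 visceral and 2 of 8 epicardial ones. The labels do not say what the sets are. The tables hold no protein-coding genes, so the depots could not be checked against adipocyte markers.

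LOC114111395 and LOC114111412 had nearly the same reads in every library. Both held the same number in 18 of 48 libraries, LOC114111412 held more in 30, and LOC114111395 held more in 0. The largest difference was 5 reads, and their totals over all libraries were 1967 and 2017. The ratio of LOC114111395 to LOC114111412 stayed between 0.846 and 1. RefSeq (assembly ARS-UI_Ramb_v3.0) annotates both on chromosome 1, each 164 bases long, with 14 genes between them. Those 14 include 4 more snRNA rows of the tables, LOC114111383, LOC114111385, LOC114111388 and LOC114111391, with 2356, 2389, 2680 and 2690 reads in all. The pair is therefore best read as 1 measurement and not as 2 independent ones.

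LOC114115462 lies on chromosome 6 in the same annotation and also has 164 bases, so that reads can be compared between the 3 genes without a length correction. It held 3512 reads in all, from 10 to 995 in a library, and was 11th of all snRNA rows by mean value in each cohort, where LOC114111412 was 19th and LOC114111395 20th. It had more reads than LOC114111395 in 38 libraries and fewer in 10, and the ratio of the 2 ran from 0.464 to 4. By depot, the median ratio in the T cohort was 1.40 in subcutaneous, 1.19 in visceral, 1.11 in epicardial and 1.03 in perirenal fat, with 8 libraries each and overlapping ranges. In the BPA cohort it was 2.04 in subcutaneous and 1.66 in visceral fat. LOC114115462 is thus not a copy of the pair in level: its reads moved apart from theirs in single libraries.

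**Figure D1:**
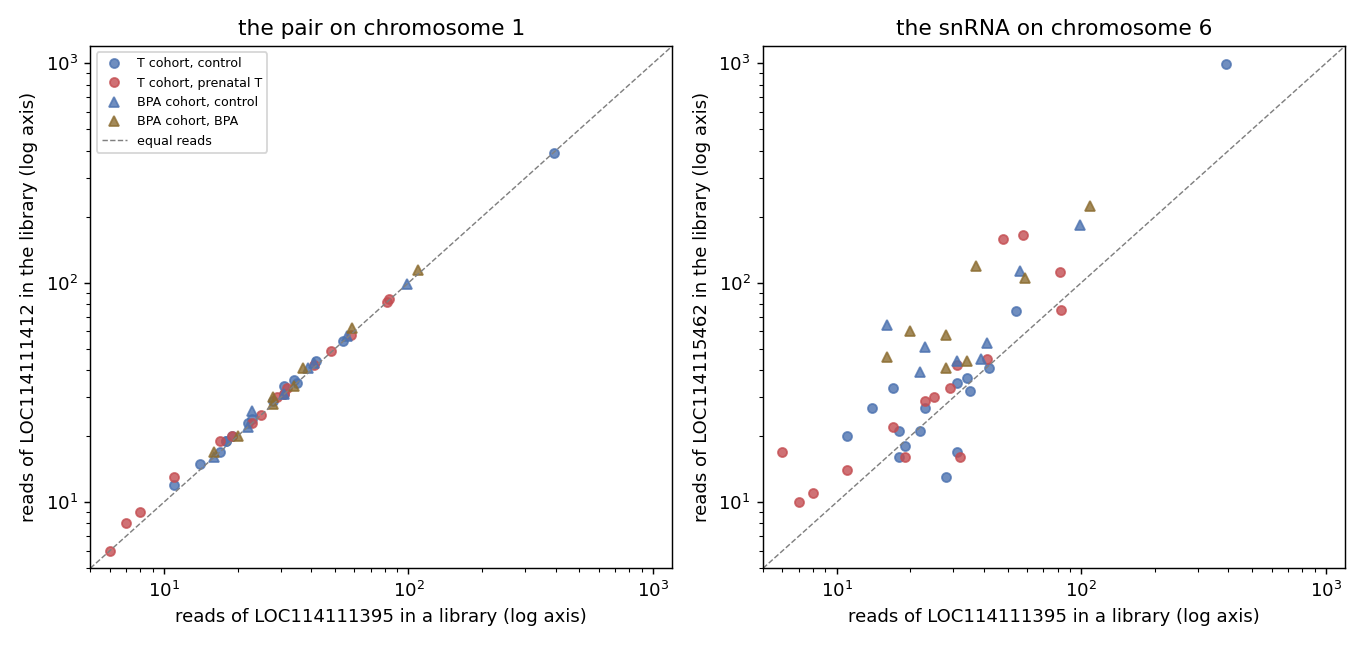
Reads of LOC114111412 (left) and of LOC114115462 (right) against reads of LOC114111395, 1 point per library (48 libraries, both axes logarithmic), with a dashed line of equal reads; colours and shapes give treatment and cohort. LOC114111412 sits on the line or up to 5 reads above it, whereas LOC114115462 scatters from 0.464 to 4 times the reads of LOC114111395.

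In epicardial fat, the contrast that picked the genes, LOC114115462 had normalised reads of 11.2, 28.5, 30.1 and 24.6 in the 4 control libraries and of 39.4, 49.1, 31.1 and 64.7 in the 4 prenatal T libraries. Every prenatal T library lay above every control, by a narrow margin of 31.1 against 30.1. The same held for 12.1% of the 33 snRNA rows with a mean value of at least 5, this gene included. LOC114111395 had 20.5, 31.2, 15.5 and 22.6 in controls and 31.3, 40.9, 27.3 and 71.6 in prenatal T libraries. Its groups overlapped, since the prenatal T library at 27.3 lay below the control at 31.2. LOC114111412 had 20.5, 31.2, 15.5 and 23.9 in controls and 31.3, 40.9, 28.3 and 72.5 in prenatal T libraries, and overlapped in the same way. The mean difference of log2(value + 1), a scale that understates changes of low values, was 0.97 for LOC114115462 and 0.84 for each of the pair. These were the highest of the 33 rows, whose median was -0.04. The rows just outside the choice had 0.78 and 0.77, and the former is another 164-base snRNA.

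As a percentage of the snRNA reads of a library, it was the pair and not LOC114115462 that separated the groups in epicardial fat. LOC114115462 made up 1.09%, 1.70%, 2.99% and 2.21% in controls and 3.29%, 3.83%, 2.91% and 4.71% in prenatal T libraries, so that the groups overlapped. LOC114111395 made up 1.99%, 1.85%, 1.54% and 2.03% in controls and 2.61%, 3.19%, 2.56% and 5.22% in prenatal T libraries. LOC114111412 made up 1.54% to 2.15% in controls and 2.61% to 5.28% in prenatal T libraries. On this scale the pair did not overlap between the groups, as was so for 15.2% of the 33 rows.

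The epicardial difference was not seen against the reads of the 4 classes together. snRNAs as a class were 0.161% to 0.395% of the reads of the 4 classes in controls and 0.0595% to 0.209% in prenatal T libraries. Per 1000000 reads of the 4 classes (RPM), LOC114115462 had 48.6 ± 22.8 in controls and 50.4 ± 21.1 in prenatal T sheep (mean ± SD, n = 4 and 4), a log2 difference of 0.10. LOC114111395 had 45.1 ± 19.2 and 47.1 ± 25.6, a log2 difference of -0.03, and LOC114111412 also had one of -0.03. On this scale the groups overlapped for each of the 3 genes. LOC114115462 ran from 17.6 to 66.9 in controls and from 22.8 to 71.5 in prenatal T libraries. For the pair the prenatal T range was the wider one and enclosed that of the controls. LOC114111395 ran from 32.1 to 73.2 in controls and from 18.99 to 79.2 in prenatal T libraries.

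Other properties of the libraries moved with this contrast. All 4 epicardial controls are of the later set, while 2 of the 4 prenatal T libraries are early, and those 2 held the highest values of all 3 genes. Within the later set the log2 difference was 0.64 for LOC114115462 and 0.41 for each of the pair. MIR133, a microRNA of striated muscle and the only 1 of 5 muscle markers in the tables, made up 1295 to 6332 reads per 1000000 microRNA reads in controls and 372 to 25852 in prenatal T libraries. MIR150, a microRNA of lymphocytes and 1 of 5 blood markers, made up 6701 to 8144 in controls and 2757 to 5410 in prenatal T libraries. MIR143, 1 of 2 smooth muscle markers, made up 13860 to 26496 in controls and 23874 to 91238 in prenatal T libraries. The 2 early prenatal T libraries had 91238 and 73186. The 2 later ones had 23874 and 26383, within the range of the controls. The part of these in the epicardial difference was not tested.

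**Figure D2:**
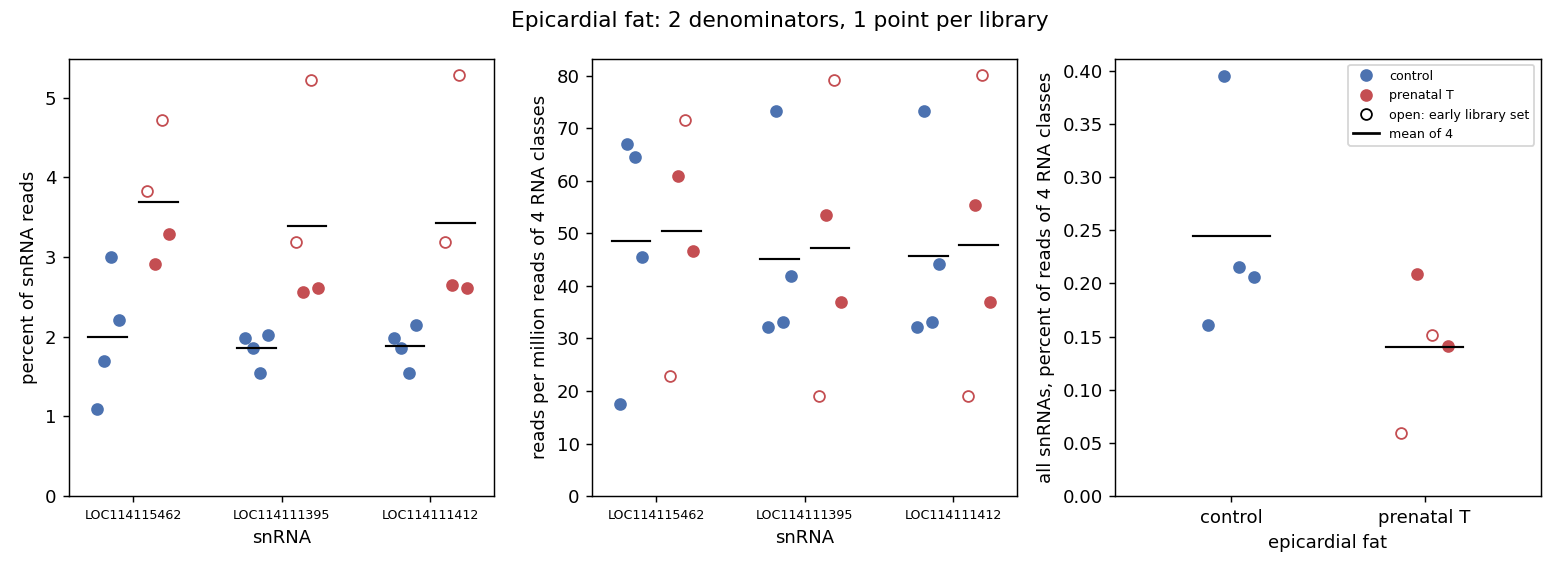
The 3 snRNAs in epicardial fat as percent of snRNA reads (left) and per 1000000 reads of the 4 RNA classes (middle), and all snRNAs as percent of those reads (right), 1 point per library (4 control, 4 prenatal T), bars at the mean, open points from the early library set. The pair separates by group on the left only. In the middle the groups overlap for each gene, and the 3 genes together run from 17.6 to 73.2 in controls and from 18.99 to 80.1 in prenatal T libraries.

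In subcutaneous fat of the T cohort, none of the 3 genes passed the test of prenatal T against control, and their values lay close together. LOC114115462 had 14.8, 22.8, 23.01 and 17.8 normalised reads in controls and 15.1, 19.5, 12.8 and 30.2 in prenatal T sheep (log2 fold change -0.06, SE 0.31, limma adjusted p = 0.934). LOC114111395 had 12.7, 11.8, 12.7 and 15.8 in controls and 10.98, 15.0, 8.95 and 10.7 in prenatal T sheep (-0.21, SE 0.35, limma adjusted p = 0.934). LOC114111412 ran from 12.7 to 17.3 and from 10.2 to 16.8, with a log2 fold change of -0.19. The groups overlapped for all 3. These are the lowest values of the pair in the T cohort, with 6 reads of each gene in 1 library, so that sheep 255 had a share of 0.880% of 682 snRNA reads with a 95% Wilson interval from 0.404% to 1.91%. Such intervals cover counting error only, and take the snRNA reads as independent, which is not known for reads that match several copies. Of 31 snRNA rows tested, 0 were called (0.0%) with limma, edgeR or DESeq2, and 2 had an unadjusted p under 0.05 with limma.

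In visceral fat of the T cohort, the genes spread widely among the prenatal T sheep. LOC114115462 had 22.6, 20.6, 57.5 and 24.7 normalised reads in controls and 69.4, 26.1, 30.997 and 207.6 in prenatal T sheep. Sheep 255 carried the highest value, where LOC114115462 made up 13.6% of the snRNA reads (159 of 1170 reads, 95% Wilson interval 11.7% to 15.7%), while the 2 prenatal T libraries at 26.1 and 30.997 lay within the range of the controls. The log2 fold change was 1.01 (SE 0.50), with an adjusted p of 0.9504 by limma and an unadjusted p of 0.0436, and with edgeR on whole reads and TMM factors it was 1.40 (adjusted p = 0.0361). Without sheep 255 the limma value was 0.41. LOC114111395 had 23.2, 21.8, 41.99 and 25.9 in controls and 51.2, 23.8, 24.4 and 62.7 in prenatal T sheep (log2 fold change 0.43, SE 0.50, limma adjusted p = 0.9504). LOC114111412 had 24.3, 22.9, 41.99 and 27.1 in controls and 51.2, 24.3, 28.8 and 64.0 in prenatal T sheep (0.45). In all 3 genes the same 2 prenatal T sheep, 48 and 255, exceeded every control. Of 30 rows tested, 0 were called (0.0%) with limma, edgeR with RLE factors or DESeq2, 1 (3.33%) with edgeR and TMM factors, and 1 row, LOC114115462 itself, had an unadjusted p under 0.05.

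In perirenal fat a control library held the highest values. LOC114115462 had 20.1, 28.7, 266.8 and 44.7 normalised reads in controls and 133.6, 26.7, 20.8 and 69.8 in prenatal T sheep, with a log2 fold change of -0.10 (SE 0.73, limma adjusted p = 0.971). In the control library of sheep 132 it had 995 of the 10795 snRNA reads (9.22%, 95% Wilson interval 8.69% to 9.78%). Without that sheep the log2 fold change was 0.68 (limma adjusted p = 0.731). That library was unusual for snRNAs as a class, which were 0.927% of its reads of the 4 classes, the highest of the 48 libraries. The other perirenal controls had 0.353%, 0.0674% and 0.0671%. LOC114111395 had 43.3, 32.3, 105.1 and 38.1 in controls and 46.96, 31.7, 41.6 and 51.1 in prenatal T sheep (-0.20, SE 0.38, limma adjusted p = 0.971). LOC114111412 had 44.9, 34.1, 105.1 and 39.7 in controls and 46.96, 33.4, 42.9 and 51.1 in prenatal T sheep (-0.22). Apart from sheep 132 the pair stayed within 31.7 and 51.1 in all 7 other libraries. Of 41 rows tested, 0 were called (0.0%) by limma, edgeR or DESeq2, and 0 had an unadjusted p under 0.05 with limma.

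The prenatal T effect on these genes was not shown to differ between the depots. From subcutaneous to visceral fat, the log2 effect differed by 1.08 for LOC114115462 (SE 0.77) and by 0.64 and 0.65 for the pair (limma adjusted p = 0.869 for each). From visceral to perirenal fat it differed by -1.12 for LOC114115462 and by -0.63 and -0.67 for the pair (limma adjusted p = 0.968). From subcutaneous to perirenal fat the 3 differences lay between -0.04 and 0.01. Of the 36 rows, 0 were called in any of these by limma (0.0%), and 0 had an unadjusted p under 0.05.

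Bisphenol A was compared with vehicle in the other cohort, with other animals and other controls. In subcutaneous fat LOC114115462 had 66.1, 55.9, 77.4 and 76.5 normalised reads in controls and 97.4, 97.3, 58.7 and 154.8 in BPA sheep. In 3 of the 4 BPA libraries it lay above every control, and sheep 977 lay below 3 of them. The log2 fold change was 0.49 (SE 0.20, limma adjusted p = 0.180), and 0.72 without sheep 977 (limma adjusted p = 0.0146, 12.5% of 40 rows called). LOC114111395 had 16.5, 39.4, 38.3 and 43.2 in controls and 32.5, 47.3, 33.0 and 48.1 in BPA sheep (0.28, SE 0.29, limma adjusted p = 0.995). LOC114111412 had 16.5, 39.4, 39.0 and 43.2 in controls and 32.5, 49.5, 34.7 and 53.3 in BPA sheep (0.35). The pair overlapped between the groups, and its low control at 16.5 belonged to sheep 902, where LOC114115462 was not low. Of 39 rows, 0 were called (0.0%) by limma or DESeq2, 3 by edgeR with TMM factors and 4 with its RLE factors, and 6 had an unadjusted p under 0.05 with limma.

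In visceral fat of the BPA cohort, LOC114115462 had 83.7, 41.2, 47.5 and 70.3 normalised reads in controls and 46.8, 56.1, 71.6 and 56.7 in BPA sheep. The 2 groups shared the same range (log2 fold change -0.03, SE 0.19, limma adjusted p = 0.881). LOC114111395 had 45.3, 35.7, 36.7 and 31.7 in controls and 31.9, 43.4, 24.9 and 27.4 in BPA sheep (-0.24, SE 0.23, limma adjusted p = 0.540). LOC114111412 had 45.3, 37.5, 38.5 and 35.9 in controls and 31.9, 43.4, 26.5 and 29.3 in BPA sheep (-0.27, SE 0.22, same adjusted p). In 3 of the 4 BPA sheep LOC114111412 lay below every control, and sheep 918 lay above 3 of them. Without sheep 918 both of the pair fell, by 0.40 and 0.41 on the log2 scale (limma adjusted p = 0.0397 and 0.0297), where 17 of 34 rows (50.0%) were called. With all sheep, 2 of 32 rows were called (6.25%), none of them one of the 3. The BPA effect differed between visceral and subcutaneous fat by -0.52 for LOC114115462 (limma adjusted p = 0.318), -0.53 for LOC114111395 (0.396) and -0.62 for LOC114111412 (0.318), where 5.26% of 38 rows were called.

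**Figure D3:**
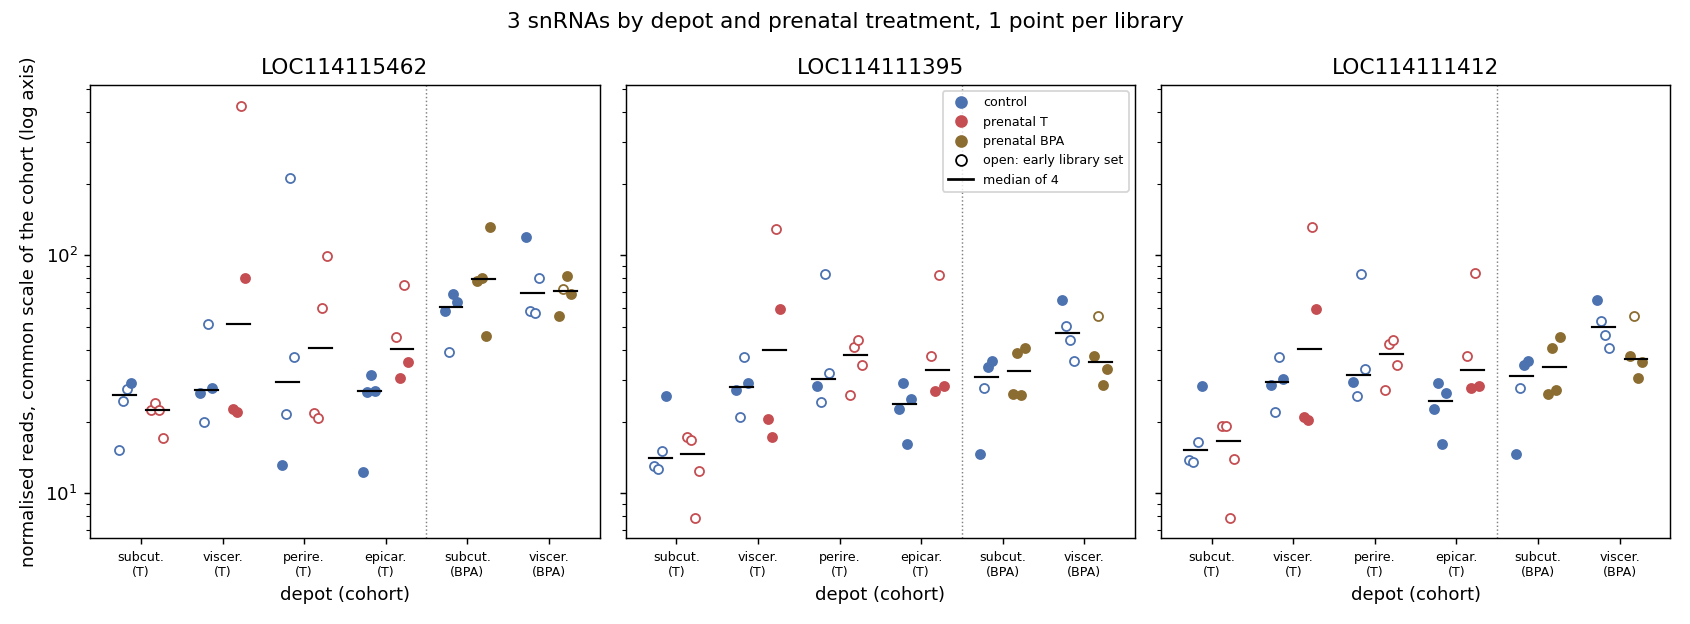
Normalised reads of the 3 snRNAs by depot and treatment, 1 point per library, on a logarithmic axis and on a scale made common to all depots of a cohort (levels are not comparable between the cohorts); bars are medians of 4, open points are of the early library set. Subcutaneous libraries of the T cohort have the lowest median for the pair, 14.1 and 15.2 over 8 libraries, and the highest libraries of LOC114115462 reach 425.7 in visceral and 212.1 in perirenal fat.

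Shares of snRNA reads, which do not use the size factors, passed no test of treatment. LOC114115462 made up 5.69% ± 5.46 of snRNA reads in visceral prenatal T libraries against 2.46% ± 1.06 in controls (SD, n = 4 and 4), with an exact permutation p of 0.229. In BPA subcutaneous libraries it made up 4.07% ± 1.27 against 3.21% ± 0.620, with an exact permutation p of 0.286 (n = 4 and 4). Over the 3 genes and 5 treatment contrasts outside epicardial fat, the lowest adjusted p of the two-sided exact permutation test was 0.980, where 4 against 4 cannot go below an unadjusted 0.0286. Treated means of LOC114111395 ranged from 0.994% in subcutaneous to 2.99% in perirenal fat of the T cohort, and differed from those of controls by less than 0.6 percentage points in each depot tested. In perirenal fat the 3 treated means were above those of controls, by 0.0886, 0.161 and 0.133 percentage points for LOC114115462, LOC114111395 and LOC114111412, whereas the log2 fold changes of normalised reads were below 0.

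Between depots of the T cohort, the pair was higher in visceral and in perirenal than in subcutaneous fat. For this comparison values were rescaled to a scale common to subcutaneous, visceral and perirenal fat, and epicardial libraries were left out because they had picked the genes. LOC114111395 was higher in visceral than in subcutaneous fat by 1.29 on the log2 scale (SE 0.35, limma adjusted p = 0.0191, n = 8 and 8) and LOC114111412 by 1.24 (SE 0.34, same adjusted p), where 14.3% of 35 rows were called, 11.4% higher and 2.86% lower. In perirenal against subcutaneous fat they were higher by 1.34 and 1.27 (limma adjusted p = 0.00576 for both), where 60.0% of 35 rows were called, 31.4% higher and 28.6% lower. LOC114115462 did not pass in either, with 1.06 in visceral (SE 0.51, limma adjusted p = 0.125) and 0.88 in perirenal fat (SE 0.51, limma adjusted p = 0.128). Rows that varied like the pair were among those called higher in perirenal fat. LOC114111383 had 1.01 there, and LOC114111385 and LOC114111387 had 1.02 each, so the called rows are not all independent. Perirenal and visceral fat differed by -0.18, 0.05 and 0.03 for LOC114115462, LOC114111395 and LOC114111412, with 0 of 35 rows called (0.0%) by limma, edgeR or DESeq2 and 2 at an unadjusted p under 0.05 with limma.

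The levels behind these tests are as follows. As a percentage of snRNA reads, LOC114111395 ran from 0.861% to 1.84% in subcutaneous (median 0.998%), 1.65% to 4.10% in visceral (median 2.06%) and 2.13% to 3.65% in perirenal fat (median 2.78%) over 8 libraries each, with 1.54% to 5.22% in epicardial fat (median 2.29%). LOC114111412 ran from 0.880% to 2.02% (median 1.08%), 1.84% to 4.19% (median 2.15%) and 2.25% to 3.65% (median 2.89%) in the same first 3 depots. For both of the pair, all 8 perirenal libraries lay above all 8 subcutaneous ones, as was so for 14.3% of the 35 rows, while the visceral range overlapped the top of the subcutaneous one and enclosed the perirenal one. LOC114115462 ran from 1.22% to 2.49% in subcutaneous (median 1.71%), 1.82% to 13.6% in visceral (median 2.05%) and 1.30% to 9.22% in perirenal fat (median 2.57%). Its order of these 3 depots by median is the same, but all of them overlap.

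The depot differences of the pair had limits. In the control sheep alone they were 0.93 and 0.88 for visceral (limma adjusted p = 0.420) and 1.20 and 1.14 for perirenal fat (limma adjusted p = 0.0643), and without sheep 48 the visceral difference was 1.18 and 1.15 (limma adjusted p = 0.102). With no filter on low values the visceral difference did not pass (limma adjusted p = 0.110). In RPM of the 4 classes, the perirenal difference was 1.28 and 1.20 (limma adjusted p = 0.126) and the visceral one 1.87 and 1.82 (limma adjusted p = 0.0241, 9.3% of rows called). Without the 2 highest libraries of LOC114115462, the pair differed by 1.16 and 1.12 in visceral and by 1.35 and 1.28 in perirenal fat (25.8% and 61.3% of rows called). Within the early library set the pair differed by 1.75 and 1.68 in visceral and by 1.45 and 1.38 in perirenal fat. In that set LOC114115462 differed by 2.05 and 1.11. The early set holds 1 visceral prenatal T library, that of sheep 255, so only effect sizes are given for it. LOC114115462 passed in fits where much of the table did. With DESeq2 on whole reads it had 1.67 in visceral and 1.44 in perirenal fat (DESeq2 adjusted p = 0.0167 and 0.0256, 48.6% and 65.7% of rows called). It also passed in visceral fat without sheep 185 (1.35, limma adjusted p = 0.0466, 40.6% called) and in perirenal fat without sheep 255 (0.99, limma adjusted p = 0.0210, 60.0% called). MicroRNAs of the marker lists varied between the depots too. MIR143 (1 of 2 on the smooth muscle list) made up 21070 to 73833 reads per 1000000 microRNA reads in subcutaneous and 37170 to 175334 in perirenal libraries. The summed epithelial microRNAs MIR200A, MIR200B and MIR200C (3 of 6 on the list) made up 10.1 to 44.3 in subcutaneous and 4.49 to 407.5 in visceral libraries. Their part in the depot differences was not tested.

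In the BPA cohort the pair was not called between depots. LOC114111395 was 0.52 (SE 0.18) and LOC114111412 0.55 (SE 0.18) higher in visceral than in subcutaneous fat on the log2 scale, both with a limma adjusted p of 0.0773 (n = 8 and 8), and 0 of 38 rows were called (0.0%) by limma, edgeR or DESeq2, with 12 at an unadjusted p under 0.05 with limma. Without sheep 924 the values were 0.62 and 0.65 (limma adjusted p = 0.0379 and 0.0297, 7.89% of rows called) and without sheep 928 0.68 and 0.69 (limma adjusted p = 0.0273, 5.26% called). LOC114115462 had 0.11 (SE 0.16, limma adjusted p = 0.578) on the common scale. On the values as deposited, where each depot has its own scale, it was -0.49 (limma adjusted p = 0.00435), where 52.6% of the 38 rows were called, so that its direction follows the scale. As a percentage of snRNA reads it ran from 2.37% to 5.65% in subcutaneous (median 3.63%) and from 2.29% to 5.35% in visceral fat (median 3.39%), and these ranges largely coincide. The median share of LOC114111395 was 1.71% in subcutaneous and 2.05% in visceral fat of this cohort.

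**Figure D4:**
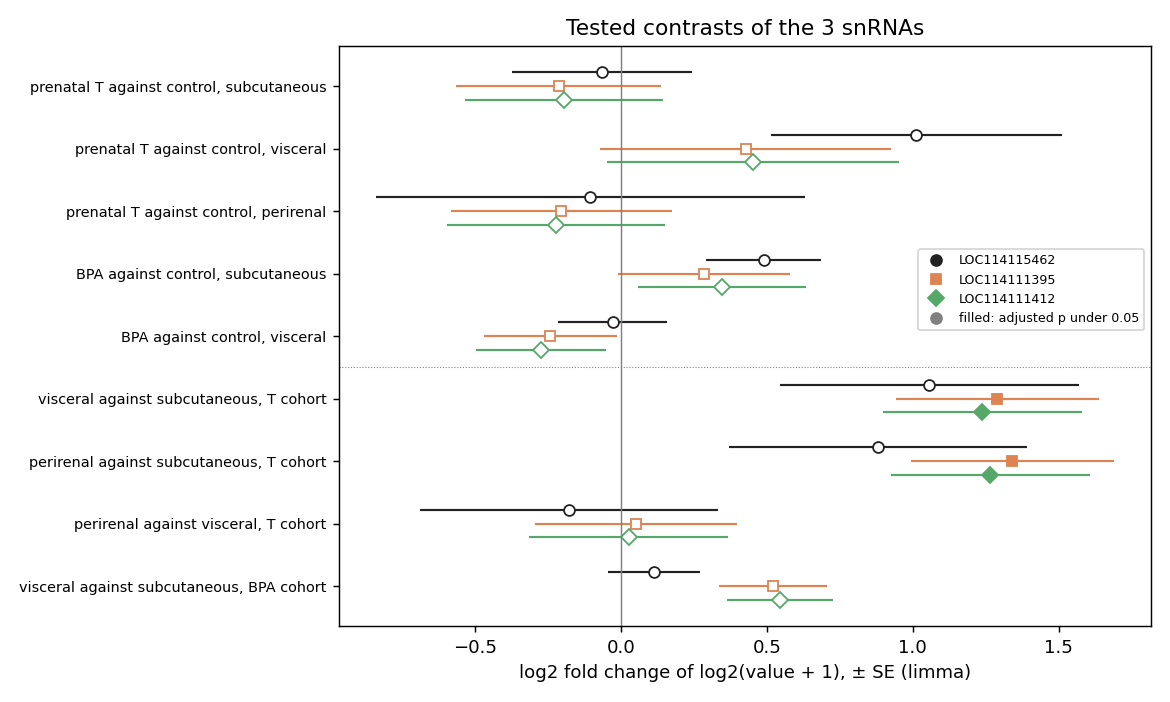
Log2 fold changes with standard errors from limma for the 3 snRNAs in the 5 treatment contrasts (top, 4 against 4 libraries) and the 4 depot contrasts (bottom, 8 against 8), filled where the adjusted p is under 0.05. Only the pair is filled, at 1.29 and 1.24 for visceral and 1.34 and 1.27 for perirenal against subcutaneous fat of the T cohort.

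Single animals held the highest values of LOC114115462 outside epicardial fat. Control sheep 132 led the 4 controls of the T cohort in visceral and in perirenal fat, with 57.5 and 266.8 normalised reads and 4.05% and 9.22% of snRNA reads. Its perirenal library also had the highest percentage of snRNA reads of all libraries, at 0.927%. In subcutaneous fat it led on deposited values by 23.01 against 22.8, but not by share, where it had 2.05% against 2.08% in sheep 201. Among the prenatal T sheep, sheep 255 led in subcutaneous fat with 30.2 and in visceral fat with 207.6. In perirenal fat sheep 48 led with 133.6 against 69.8 in sheep 255. The order of the animals was noticed in the data and was not tested.

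Other snRNA rows have the same annotated length as the 3 genes, which by itself does not show that they are related. Of the 1148 snRNA rows, 1010 (88.0%) were found in RefSeq (ARS-UI_Ramb_v3.0), and 26 of these have 164 bases, all with reads in at least 1 library. The list was drawn up after the values had been seen, because the table names no snRNA type. The highest of them was LOC114117060, with mean normalised reads of 107.04 in the T and 208.2 in the BPA cohort, against 47.05 and 72.4 for LOC114115462 and 32.02 and 35.96 for LOC114111395. LOC114111391, LOC114111385 and LOC114111383, which lie between the pair, had 43.1, 38.6 and 38.01 in the T cohort, close to the pair. In visceral against subcutaneous fat of the T cohort, 3 of the 13 tested rows of that length were called higher and 0 lower (median 0.86, or 0.69 without the 3 genes, against -0.21 over all 35 rows), of which 2 are the pair, beside 11.4% of all rows. In perirenal against subcutaneous fat 6 of 13 were called higher and 0 lower (median 0.91, or 0.52 without the 3 genes, against 0.08 over all rows), 4 of them outside the pair, beside 31.4% of all rows. With limma, no row of that length was called in the prenatal T contrasts outside epicardial fat, and with BPA 1 of 11 was called lower in visceral fat and 0 of 13 in subcutaneous fat.

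The rows that varied most like each gene were sought from deviations from the group means of log2(reads per 10000 snRNA reads + 1), which share library and depth, so that r is a description only. For LOC114115462, among 67 rows, these were LOC114109241 (r = 0.69), LOC114109197 (0.65) and LOC114109164 (0.59) over the 32 libraries of the T cohort, but over the 16 of the BPA cohort the values were 0.26, 0.15 and 0.13. For the mean of the pair, among 66 rows, they were LOC114111383 (r = 0.88), LOC114111385 (0.87) and LOC114111387 (0.87), and in the BPA cohort 0.76, 0.77 and 0.77. LOC114111383 and LOC114111385 lie between the 2 genes of the pair on chromosome 1, and the likeness of the pair was close in both cohorts, whereas that of LOC114115462 was not.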

How the data were processed

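Libraries were made from total RNA with the NEBNext small RNA kit, per the labels' protocols. The values the authors deposited are a non-negative signal per feature, which the files show to be reads divided by 1 size factor per library. Tools named are cutadapt 3.2, STAR 2.6.0c and featureCounts 1.6.1, per the submitters' processing notes. The sources used here name no genome build. Whole reads were recovered from 100% of values (tolerance 1e-05), and the size factors equal median-of-ratios factors within each class and depot. Treatments were compared on values as deposited, and depots after rescaling with median-of-ratios factors computed over all libraries in the comparison. snRNA rows with a mean of at least 5 were fitted as log2(value + 1) with limma 3.58.1 (R 4.3.3, trend, two-sided), adjusted by Benjamini-Hochberg over the rows, and called under an adjusted p of 0.05. Alternatives used edgeR 4.0.16 and DESeq2 1.42.0 on whole reads. The fits were run on simulated counts with independent rows and no sheep effect, which does not show how they behave on these libraries. Shares were compared by exact permutation over 70 regroupings.

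The members and lists were chosen with earlier results of these data known. The named genes are the 3 snRNAs, the 3 rows most like LOC114115462 and the pair, the highest row of a list, and the rows between the pair, the last chosen after their values were seen. A list by snRNA type could not be made, and annotated length replaced it. Depots of 1 sheep are paired by the labels: deviations of libraries correlated with a median r of 0.24 within a sheep (over 0.1 in 29 of 48 pairs) and -0.03 between sheep in the T cohort, and of 0.16 (5 of 8 pairs) and 0.01 in the BPA cohort. Over 72 pairs of libraries of a group, the chi-square per degree of freedom was at least 10.6, and each library counted once. No column was left out.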

Additional observations from a re-analysis of the deposited data

Results flagged for a closer look

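Each of 72 sets of 4 libraries (3 genes, 12 groups, normalised reads and share of snRNA reads) was searched for a library far from the other 3, by Dixon's ratio of the gap to the range at its 95% critical value. Chance gives about 1 in 20 for a single set, and 8 were found. The sets are not independent, because the pair is close to 1 measurement and both quantities come from the same reads. The count of 8 therefore does not show an excess. LOC114115462 stood high in sheep 132 among controls of the T cohort, at 57.5 normalised reads (others 20.6 to 24.7) and 4.05% of snRNA reads (others 1.82% to 1.998%) in visceral fat, and at 266.8 (others 20.1 to 44.7) in perirenal fat. In the same perirenal library LOC114111395 and LOC114111412 stood at 105.1 each, above 32.3 to 43.3 and 34.1 to 44.9, and in the visceral one LOC114111395 made up 2.95% (others 1.92% to 2.09%). LOC114111395 made up 1.35% in sheep 185 among subcutaneous prenatal T libraries (others 0.861% to 0.884%). LOC114111412 stood low, at 16.5 (others 39.0 to 43.2), in sheep 902 among BPA cohort subcutaneous controls.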

How the results depend on the processing

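Of the calls on the pair, higher levels in visceral and perirenal than in subcutaneous fat of the T cohort, the direction held under every alternative that was run. Blocking on the sheep (replicate block) changed no call of the 3 genes: visceral against subcutaneous fat stayed at 1.24 and 1.29 (limma adjusted p = 0.0156), perirenal at 1.27 and 1.34 (0.00582). No paired analysis was possible for the treatments, because no sheep had both. Of 91 changes of sign, 1 touched a called value. The alternatives added after seeing the data were the values within 1 library set, the fit without the 2 highest libraries and the reads per 1000000 in perirenal fat without sheep 132. The cause of the changes below was not tested. In subcutaneous libraries 6 to 34 reads of the pair limit the precision.

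In the following, log2 values are given for LOC114115462 unless the pair, in the order LOC114111412 and LOC114111395, is named. With edgeR and TMM factors, the prenatal T effect in visceral fat was 1.40, that in perirenal fat 0.20 (pair 0.16 and 0.18), perirenal against subcutaneous fat 1.46, perirenal against visceral fat 0.46 and visceral against subcutaneous fat of the BPA cohort -0.020. With RLE factors the prenatal T effect in subcutaneous fat was 0.0028, and visceral, perirenal against subcutaneous fat gave 1.66 and 1.46, with -0.083 and -0.068 for the pair in perirenal against visceral fat. DESeq2 gave 1.67, 1.44 and, for the pair, -0.082 and -0.067. Per 10000 snRNA reads, the prenatal T effect in perirenal fat was 0.18 (pair 0.059 and 0.076), the BPA effect in visceral fat 0.010, perirenal against visceral fat 0.012, the BPA cohort depot difference -0.078, and the difference of the prenatal T effect between perirenal and subcutaneous fat 0.31 (LOC114111412 0.32). Per 1000000 reads of the 4 classes, the pair had -0.044 and -0.067 for prenatal T in visceral fat, -0.034 and -0.030 in epicardial fat (LOC114115462 0.10), 1.20 and 1.28 in perirenal against subcutaneous and -0.62 and -0.59 in perirenal against visceral fat, and the BPA cohort depot difference was -0.23. As differences of reads per 1000000, prenatal T in perirenal fat gave -180.5 for LOC114115462, -80.8 for LOC114111395 and -81.6 for LOC114111412, and without the control library of sheep 132 it gave 26.5, -7.56 and -8.84. On values as deposited, visceral and perirenal against subcutaneous fat gave 1.08 and 1.36, perirenal against visceral fat 0.27, and the BPA cohort depots -0.49 (pair -0.047 and -0.070).

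In control libraries alone the pair had 0.88 and 0.93 in visceral and 1.14 and 1.20 in perirenal against subcutaneous fat, LOC114115462 had 0.28 in perirenal against visceral fat, and LOC114111412 had 0.96 in the BPA cohort depots. With no filter on low values the visceral difference of the pair was 1.24 and 1.29, no longer past the threshold (limma adjusted p = 0.110). With a set term, visceral against subcutaneous fat gave 1.69 and perirenal against visceral fat -0.16 and -0.16 for the pair. Within the early set, which holds 1 visceral prenatal T library, the values were 2.05 and 1.11 against subcutaneous fat. There the pair had -0.30 and -0.31 in perirenal against visceral fat. LOC114111395 had -0.13 in the difference of the prenatal T effect between perirenal and subcutaneous fat. BPA in visceral fat was not run within 1 set, since 1 control would be left.

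Leaving out each sheep in turn, the prenatal T effect of LOC114115462 ran from -0.29 to 0.10 in subcutaneous and from -0.59 to 0.68 in perirenal fat, where the pair ran from -0.40 to 0.13 and from -0.40 to 0.16. The BPA effect ran from 0.26 to 0.72 in subcutaneous fat (LOC114111395 from -0.025 to 0.42) and from -0.19 to 0.14 in visceral fat (pair from -0.41 to -0.18 and from -0.40 to -0.14). Visceral against subcutaneous fat ran from 0.83 to 1.35 in the T cohort (pair from 1.05 to 1.505 and from 1.12 to 1.54) and from -0.071 to 0.25 in the BPA cohort (pair from 0.35 to 0.69 and from 0.31 to 0.68). Perirenal against subcutaneous fat ran from 0.59 to 1.06, and perirenal against visceral fat from -0.42 to 0.16 (pair from -0.17 to 0.23 and from -0.17 to 0.26). The difference of the prenatal T effect between perirenal and subcutaneous fat ran from -0.62 to 0.66 (pair from -0.23 to 0.33 and from -0.19 to 0.39). In shares of snRNA reads, in percentage points, prenatal T ran from -0.380 to 0.0453 in subcutaneous and from -1.04 to 1.86 in perirenal fat (pair from -0.0879 to 0.372 and from -0.0713 to 0.428), and BPA from -0.534 to 0.488 in visceral fat (LOC114111395 from -0.538 to 0.0053) and, for the pair, from -0.163 to 0.268 and from -0.239 to 0.193 in subcutaneous fat.

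The number of snRNA rows called in visceral against subcutaneous fat of the T cohort was 5, and 10 with the set term, 1 with no filter, 2 with TMM, 15 with RLE, 17 with DESeq2, 13 as deposited, 0 in controls, 8 without the 2 highest libraries and 0 to 13 leaving out a sheep. In perirenal against subcutaneous fat it was 21, and 0 per 1000000 reads, 10 with no filter, 0 in controls and as few as 10 leaving out a sheep. In perirenal against visceral fat it was 0, and 2 without sheep 132 or the 2 highest libraries. In the BPA cohort depots it was 0, and 2 with no filter, 20 as deposited, 6 in controls and up to 3 leaving out a sheep. For BPA in visceral fat it was 2, and 10 per 10000 snRNA reads, 0 with the set term and 1 to 17 leaving out a sheep; in subcutaneous fat 0, and 2 with no filter, 3 with TMM, 4 with RLE and up to 5; for the difference of the BPA effect 2, and 0 within the later set. Prenatal T in visceral fat gave 0, and 1 with TMM.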
